A study of Mus musculus with 15 samples.

Results

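The late cornified envelope (Lce) and small proline-rich (Sprr) genes encode short proteins that surface epithelia lay down as their outermost cells die. The 34 genes described here are all entries of the deposited tables whose symbol starts with Lce or Sprr followed by a digit, out of 23420 mouse genes. One further matching entry was left out because its symbol ends in -ps, which marks a pseudogene. The 34 members fall into 7 subfamilies by name, with 14 genes in Lce1, 6 in Lce3, 1 in Lce6, 2 in Sprr1, 9 in Sprr2, 1 in Sprr3 and 1 in Sprr4. One of the Sprr2 genes, Sprr2g, is annotated as a polymorphic pseudogene, and it was kept because its symbol meets the rule.

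As background, a keratinocyte that reaches the surface of a stratified epithelium replaces its membrane with a cornified envelope, a shell of proteins that transglutaminases weld to each other. Loricrin, involucrin and filaggrin-type proteins are laid into this shell together with the Lce and Sprr proteins. Sprr proteins are built from repeats rich in proline, glutamine and cysteine and are known as cross-bridging proteins, and Lce proteins are known as late additions to the envelope. The genes of both families lie side by side in the epidermal differentiation complex, and their members are known to be used to different degrees in skin and in oral epithelium.

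RNA was measured in the epidermis and the tongue of newborns on postnatal day 1. Wild-type mice were compared with mice in which the Tmprss11 cluster had been edited so as to lack the 7 HAT/DESC proteases, a family of membrane-anchored serine proteases (Tmprss11a to Tmprss11g). The groups were wild-type epidermis (n = 3), knockout epidermis (n = 4), wild-type tongue (n = 4) and knockout tongue (n = 4), and the labels give the 7-gene allele name as the strain of all of them, wild types included. The genetic background, the exact edits and whether all knockout animals descend from 1 founder are not stated. The labels also give each library an A-number. If this number names the animal, there were 9 animals, of which all 4 knockouts and 2 wild types supplied both tissues, so the comparisons in the 2 tissues share animals. The numbers fall into 3 ranges, written A32x, A34x and A38x here, and the labels leave the meaning of a range unstated. In epidermis the A34x range held a knockout library only.

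The 15 libraries held 10117819 to 17819195 counted reads. The members took 0.280% to 0.549% of them in epidermis and 0.0763% to 0.138% in tongue. The first wild-type epidermis library stood apart, with 44.6% of its reads from the 2 mitochondrial ribosomal RNAs against 20.1% to 23.8% in the other epidermis libraries. Of the targeted genes, 6 were found and Tmprss11c was not analysed here. Tmprss11b read 50.9 to 63.8 CPM (counts scaled to a common library size with TMM factors) in the wild-type tongues and 10.97 to 16.53 CPM in the knockout tongues, and 3.54 to 3.70 against 0.332 to 1.15 CPM in epidermis. These groups did not overlap. In epidermis Tmprss11d and Tmprss11e did not overlap either, both lower in the knockouts, while Tmprss11a, Tmprss11f and Tmprss11g overlapped, with Tmprss11g at a mean of 8.27 CPM in wild type and 11.1 CPM in the knockouts. In tongue Tmprss11g was the only one of the 6 that overlapped. RNA of all 6 genes was still read in the knockouts. Skeletal muscle markers summed to 107 to 769 CPM in epidermis and 32267 to 56495 CPM in tongue, so the tongue libraries held muscle. Epidermal suprabasal markers such as Krt1 summed to 28759 to 57697 CPM in epidermis and 1029 to 1367 CPM in tongue. In such bulk samples, fewer cells of a type and less RNA per cell cannot be told apart.

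All 34 members lie on mouse chromosome 3 within 733.6 kb of the GRCm38 build (GENCODE M21 annotation), 15 on the plus strand and 19 on the minus strand. The order along the chromosome is the Sprr2 genes from Sprr2a3 (chr3:92285417-92291405) to Sprr2k (chr3:92432582-92433925), then Sprr1b (chr3:92436809-92438789), Sprr3 (chr3:92456502-92458720), Sprr1a (chr3:92483952-92485895) and Sprr4 (chr3:92500263-92500493). Lce6a (chr3:92620081-92621660) follows, then 13 Lce1 genes from Lce1a1 to Lce1l, the Lce3 genes beginning with Lce3a (chr3:92925287-92926230), and Lce1m (chr3:93017810-93019060), which lies at the far end, apart from the rest of its subfamily and next to the Lce3 genes.

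The coding sequences show how alike the members are, which bears on how well short reads tell them apart. The first 60 coding bases are given for Lce3a, which was higher in tongue, and for 2 Lce1 genes, which were higher in epidermis, with the start codon in capitals, from the GENCODE M21 transcripts:
Lce3a: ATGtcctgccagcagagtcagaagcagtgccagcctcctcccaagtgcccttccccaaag
Lce1m: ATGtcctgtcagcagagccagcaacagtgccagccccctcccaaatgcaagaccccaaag
Lce1d: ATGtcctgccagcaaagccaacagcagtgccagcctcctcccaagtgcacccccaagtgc

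Over the whole coding sequence, the 15 pairs of Lce3 genes were 94.6% to 99.3% identical, with a median of 98.0%. The Lce1 pairs spanned 43.4% to 95.7% with a median of 83.3%. Lce1m was the distant one, with Lce1i as its closest member at 57.9%. Sprr1a and Sprr1b were 78.4% identical, Sprr2 pairs ran from 53.5% to 96.9%, and the member closest to Sprr3 was Sprr1b at 47.3%. The libraries were read with 37 bases from each end. The share of 37-base stretches of a member that also occurred in another gene's transcripts was 0.22% for Lce1m, up to 46.9% for the other Lce1 genes, the least being Lce1k with 69 of 627 stretches, and 20.9% to 57.1% for the Lce3 genes. It was 0 for Sprr1a, Sprr1b, Sprr2k, Sprr3, Sprr4 and Lce6a, 6.51% for Sprr2d and 68.9% for Sprr2a3, whose close copies Sprr2a1 and Sprr2a2 were not analysed here. How the authors' counting treated such reads was not stated, so values of single Lce1 and Lce3 genes other than Lce1m, and of Sprr2a3, Sprr2b (24.8%), Sprr2i (18.9%) and Sprr2e (16.7%), are uncertain to that degree.

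Promoters are shown for members that passed the threshold between the wild-type tissues in either direction. Each line gives the 200 bases before the start of transcription, 5′ to 3′ on the gene's own strand (RefSeq, GRCm38.p6), with matches to a searched motif in capitals. The first 3 are Sprr2 genes, 2 of them higher in epidermis and 1 (Sprr2k) higher in tongue:
Sprr2d, chr3:92338940-92339139, plus strand: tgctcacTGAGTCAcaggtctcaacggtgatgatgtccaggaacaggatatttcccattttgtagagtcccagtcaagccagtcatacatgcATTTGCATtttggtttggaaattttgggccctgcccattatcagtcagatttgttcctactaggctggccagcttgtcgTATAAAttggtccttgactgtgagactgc
Sprr2h, chr3:92385485-92385684, plus strand: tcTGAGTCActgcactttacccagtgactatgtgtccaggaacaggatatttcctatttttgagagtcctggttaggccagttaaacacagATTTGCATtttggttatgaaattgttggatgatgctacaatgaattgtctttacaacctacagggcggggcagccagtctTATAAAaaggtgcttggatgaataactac
Sprr2k, chr3:92432382-92432581, plus strand: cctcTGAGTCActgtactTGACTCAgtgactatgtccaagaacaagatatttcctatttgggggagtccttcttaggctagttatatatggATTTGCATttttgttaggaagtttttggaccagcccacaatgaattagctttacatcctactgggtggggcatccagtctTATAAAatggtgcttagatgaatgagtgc

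The next 3 are the Sprr1 pair, whose members lean to opposite tissues, and Sprr3, the member with the highest level in tongue:
Sprr1b, chr3:92438780-92438979, minus strand: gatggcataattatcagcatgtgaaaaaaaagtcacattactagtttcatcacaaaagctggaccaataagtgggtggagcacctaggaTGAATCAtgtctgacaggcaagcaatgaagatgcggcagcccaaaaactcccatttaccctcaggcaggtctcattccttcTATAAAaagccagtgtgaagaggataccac
Sprr1a, chr3:92485882-92486081, minus strand: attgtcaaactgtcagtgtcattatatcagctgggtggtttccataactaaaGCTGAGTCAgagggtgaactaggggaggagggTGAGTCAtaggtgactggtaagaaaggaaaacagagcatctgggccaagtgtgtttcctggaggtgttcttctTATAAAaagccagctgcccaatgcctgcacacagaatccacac
Sprr3, chr3:92458721-92458920, minus strand: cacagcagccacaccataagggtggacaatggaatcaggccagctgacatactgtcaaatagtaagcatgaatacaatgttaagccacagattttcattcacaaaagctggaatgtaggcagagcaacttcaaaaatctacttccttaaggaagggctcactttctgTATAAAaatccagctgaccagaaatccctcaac

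The last 2 are Lce1m, the member with the highest level in epidermis, and Lce3a, which was almost absent from epidermis:
Lce1m, chr3:93019062-93019261, minus strand: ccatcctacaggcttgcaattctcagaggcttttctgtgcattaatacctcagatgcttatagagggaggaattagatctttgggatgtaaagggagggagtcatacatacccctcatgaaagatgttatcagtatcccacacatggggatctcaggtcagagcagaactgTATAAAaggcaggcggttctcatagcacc
Lce3a, chr3:92926231-92926430, minus strand: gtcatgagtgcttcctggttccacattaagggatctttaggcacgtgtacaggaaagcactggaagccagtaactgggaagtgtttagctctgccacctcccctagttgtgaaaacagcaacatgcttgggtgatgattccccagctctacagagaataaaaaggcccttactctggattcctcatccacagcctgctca

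The motifs were chosen after promoter sequences had been seen, and they were searched on both strands of the window from 250 bases before to 50 bases after the start in 32 members (Lce1f and Sprr2g were not in the table) and in all 27025 promoters of that table. The TATA box letters TATAAA occurred in 43.8% of the members and 14.16% of all promoters. The AP-1 letters TGANTCA, named after the Jun and Fos factors, occurred in 28.1% against 7.93%, and the octamer letters ATGCAAAT, known from POU-domain factors, in 21.9% against 1.75%. All 3 occurred together in 7 of the 8 Sprr2 promoters, at nearly fixed places, with the AP-1 match nearest the far end 193 to 198 bases before the start, the octamer 108 to 112 bases before it and the TATA box 29 bases before it. Sprr2a3 was the exception. The Sprr2 genes supplied all 7 members with the octamer and 7 of the 9 with an AP-1 match. With matches at nearly fixed places in neighbouring genes, these shares do not count independent promoters. Both Sprr1 genes had TATA and AP-1 matches, and Sprr3 had a TATA match 33 bases before the start. The TATA matches of Lce6a and Lce3e were on the opposite strand, 218 and 243 bases before the start. No Lce gene had an AP-1 or octamer match. The core of the antioxidant response element, TGACNNNGC, was in 21.9% of the members against 12.47% of all promoters, and in Sprr1a it overlaps the first AP-1 match. The Grainyhead-like letters AACCGGTT were in no member and in 0.15% of all promoters. Sprr2d, Sprr2h and Sprr2k held the same 3 motifs while their levels differed between the tissues, as given below. A match describes letters, not a site in use.

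By their sums the 2 families leaned to opposite tissues, although Lce3 was higher in tongue and Sprr2 and Sprr4 were higher in epidermis. In wild-type epidermis the Lce genes summed to 2870 CPM and the Sprr genes to 141 CPM, and in wild-type tongue the order was turned, with 358 CPM of Lce and 764 CPM of Sprr. The knockouts gave 3126 and 187 CPM in epidermis and 340 and 780 CPM in tongue. Lce1 made up 87.2% ± 3.16 (SD, n = 3) of the members' summed CPM in wild-type epidermis and 7.20% ± 2.24 (SD, n = 4) in wild-type tongue. Sprr3 made up 0.212% in wild-type epidermis and 59.5% in wild-type tongue, and Lce3 1.49% and 24.8%. The knockout shares were 87.2% and 6.53% for Lce1, 0.195% and 61.7% for Sprr3, and 1.32% and 23.4% for Lce3. CPM is not divided by gene length, so these shares weigh long transcripts more.

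**Figure D1:**
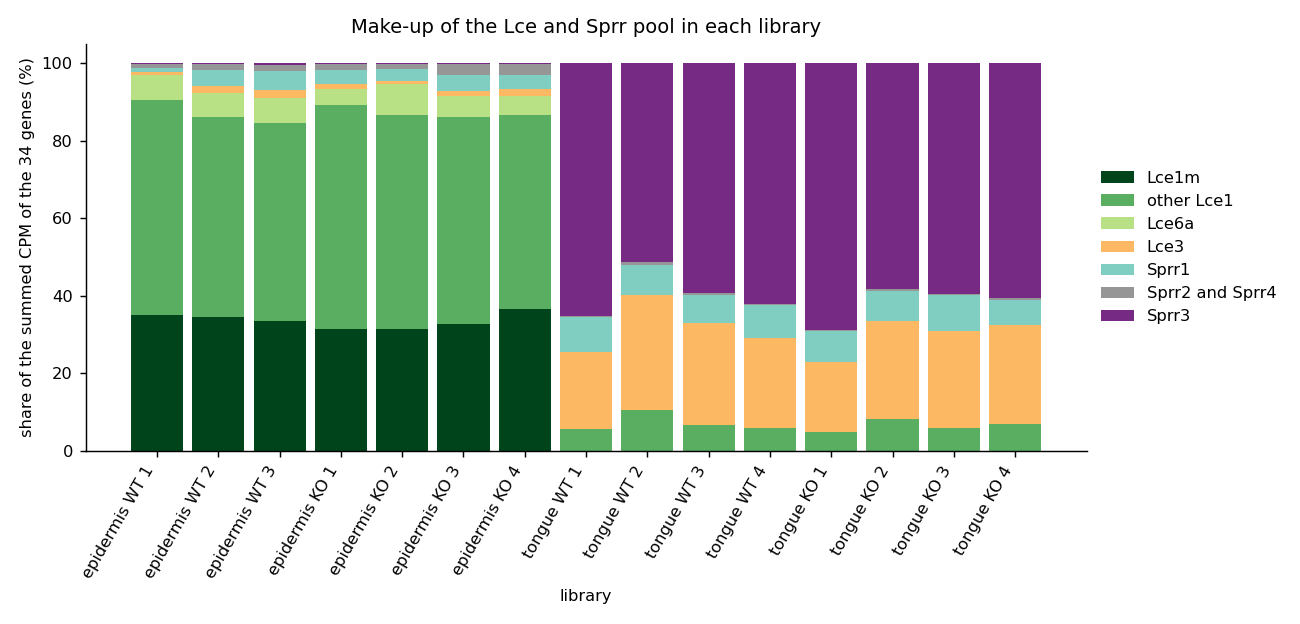
Share of the summed CPM of the 34 genes (%, stacked bars) in each of the 15 libraries, with Lce1m drawn apart from the other Lce1 genes. Green Lce1 and Lce6a bars fill most of every epidermis library, and Sprr3 with Lce3 fills most of every tongue library, in both genotypes.

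Between wild-type tissues, 28 of the 31 members tested differed, 20 of them higher in epidermis and 8 higher in tongue (edgeR's quasi-likelihood test with Benjamini-Hochberg adjustment over 16577 genes at a threshold of 0.05). This has to be read against a background in which 63.6% of all genes tested differed, 32% higher in epidermis and 31.6% lower. Libraries of the 2 groups did not overlap for 19 members higher in epidermis and 8 higher in tongue, against 31.8% and 33.9% of all genes. The median log2 fold change of the members was 3.54, against 0.03 for all genes. Sprr2e, Sprr2f and Sprr2i had too few reads to be tested. In the knockout tissues 21 members were higher in epidermis and 7 in tongue of 31 tested, where 63.8% of all genes differed, 32.7% higher in epidermis and 31.1% lower, and the members not tested were Sprr2f, Sprr2i and Sprr2k. A member read in 1 tissue only could be tested only where it differed, so these counts describe the members tested and are no count over all 34.

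**Figure D2:**
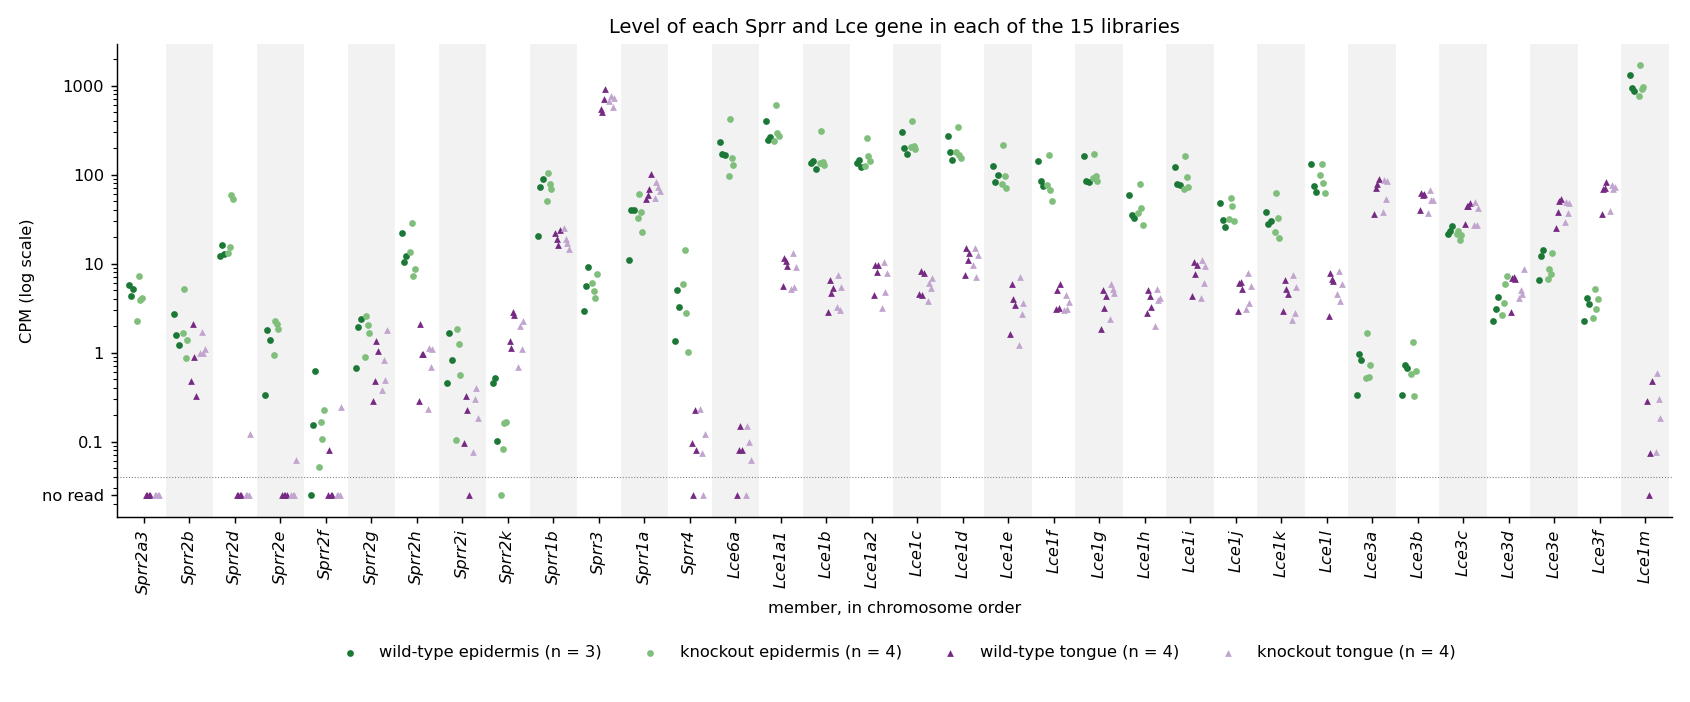
CPM of each member in each library on a log axis, in chromosome order from Sprr2a3 to Lce1m; circles are epidermis, triangles are tongue, dark is wild type, light is knockout, and points below the dotted line had no read. Circles lie above triangles for the Lce1 genes and Lce6a, and below them for Sprr3, Lce3a, Lce3b, Lce3e and Lce3f.

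The Lce1 genes, late envelope proteins of the skin, were all higher in epidermis. All 14 passed in both genotypes, with log2 fold changes of 2.72 (Lce1k) to 12.26 (Lce1m) in wild type and 2.92 to 11.87 in the knockouts. Their sum was 2638 ± 658 CPM (SD, n = 3) in wild-type epidermis and 79.7 ± 23.7 CPM (SD, n = 4) in wild-type tongue, a ratio of 33.1, and the ratio was 38.5 in the knockouts. Per 1000 CPM of the epithelial reference genes described below, the tissues lay closer together. The sum was then 276 ± 162 (SD, n = 3; 171 to 463) in wild-type epidermis and 35.6 ± 13.8 (SD, n = 4; 15.5 to 46.7) in wild-type tongue, still with no overlap.

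Lce1m differed from the rest of its subfamily in more than sequence. It read 1311, 942 and 863 CPM in the wild-type epidermis libraries and 766, 1686, 927 and 958 CPM in the knockout ones. In tongue it read 0.287, 0, 0.0747 and 0.485 CPM in wild type and 0.0768, 0.597, 0.299 and 0.184 CPM in the knockouts. Every epidermis library was far above every tongue library, where 10 wild-type and 15 knockout reads were counted in all. The log2 fold change was 12.26 (SE 0.53, edgeR adjusted p = 1.6e-07) in wild type and 11.87 (SE 0.49, edgeR adjusted p = 7.6e-09) in the knockouts. Over pooled reads Lce1m was 4752-fold higher in wild-type epidermis, with a counting interval of 2584 to 9910 that covers counting error only. It held 39.5% ± 0.728 (SD, n = 3) of the Lce1 sum in wild-type epidermis and 0.312% in wild-type tongue. The other 13 Lce1 genes were read in tongue at means of 3.60 (Lce1g) to 11.7 (Lce1d) CPM, and Lce1d went from 7.49% of the Lce1 sum in epidermis to 14.8% in tongue. Per kilobase of exon, which allows for gene length but not for reads lost to similar genes, Lce1m led wild-type epidermis at 1094 ± 252 CPM per kb (SD, n = 3), followed by Lce1a1 at 432 ± 123. Lce1c at 311 ± 94.9, Lce1d at 295 ± 98.2 and Lce6a at 239 ± 48.9 came next, with SDs that overlapped.

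Lce1a1, the next gene in that order, read 404, 244 and 265 CPM in wild-type epidermis and 5.65, 11.5, 10.7 and 9.45 CPM in wild-type tongue, again with no overlap. Its log2 fold change was 5.05 in wild type and 5.42 in the knockouts. Lce1c, whose coding sequence is closest to that of Lce1f at 95.7%, had 5.19 and 5.54. The remaining Lce1 genes formed a middle band of wild-type epidermis means, from 89.7 CPM (Lce1l) and 92.3 CPM (Lce1i) over Lce1f, Lce1e, Lce1g, Lce1b and Lce1a2 to 200 CPM (Lce1d). Below it came Lce1h at 42.6 CPM, Lce1j at 35.0 CPM and Lce1k at 31.7 CPM, which with 2.72 also had the smallest tissue difference of the subfamily.

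Lce6a, the only gene of its subfamily, was read almost only in epidermis. It read 235, 169 and 167 CPM in wild-type epidermis and 97.6, 425, 156 and 129 CPM in the knockouts, and no tongue library reached more than 0.149 CPM. The 4 wild-type tongues together held 4 reads of it, and so did the 4 knockout tongues. Its log2 fold change was 11.05 (SE 0.34) in wild type and 11.23 (SE 0.73) in the knockouts by edgeR, and the pooled ratio in wild type was 2190, with a counting interval of 855 to 8038.

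The Lce3 genes ran the other way, although they lie between Lce1l and Lce1m. Of the 6 genes, 5 were higher in tongue in both genotypes. Their sum was 42.5 ± 8.80 CPM (SD, n = 3) in wild-type epidermis and 278 ± 76.1 CPM (SD, n = 4) in wild-type tongue, a ratio of 6.55, and 40.1 ± 5.94 and 265 ± 71.2 CPM (SD, n = 4 each) in the knockouts.

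The size of the difference was graded within Lce3. Lce3a read 0.338, 0.975 and 0.821 CPM in wild-type epidermis and 36.6, 70.1, 78.4 and 90.3 CPM in wild-type tongue. Lce3b read 0.338, 0.718 and 0.667 CPM in wild-type epidermis and 39.8, 62.4, 59.2 and 61.001 CPM in wild-type tongue. Both were thus nearly silent in epidermis, with log2 fold changes of -6.44 (SE 0.42) and -6.46 (SE 0.29) in wild type and -6.30 and -6.24 in the knockouts. Lce3f followed at -4.23 and -4.10, and Lce3e at -1.89 and -2.14. Lce3c was read in both tissues, at 21.3, 23.1 and 26.7 CPM in wild-type epidermis and 27.8, 44.2, 44.4 and 48.6 CPM in wild-type tongue. The libraries still did not overlap, and the log2 fold change was -0.78 (edgeR adjusted p = 0.0077) in wild type and -0.77 (edgeR adjusted p = 0.0061) in the knockouts. Lce3d did not pass, at -0.83 (edgeR adjusted p = 0.066) in wild type and -0.18 (edgeR adjusted p = 0.67) in the knockouts, and in wild type it passed under 6 of 16 alternative settings.

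The make-up of the Lce3 pool therefore differed between tissues. Lce3c held 56.7% ± 6.80 (SD, n = 3) of the Lce3 sum in wild-type epidermis and 15.04% ± 1.07 (SD, n = 4) in wild-type tongue. Lce3a held 1.62% ± 0.594 and 24.3% ± 1.98, and Lce3f 7.72% ± 1.38 and 23.0% ± 1.19. The knockouts gave 52.9% and 13.8% for Lce3c and 2.10% and 24.4% for Lce3a. The Lce3 genes share 20.9% to 57.1% of their 37-base stretches with other genes, mostly with each other, so reads could have been moved or lost among them. The stretches of Lce3a and Lce3b were shared the least in the subfamily.

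**Figure D3:**
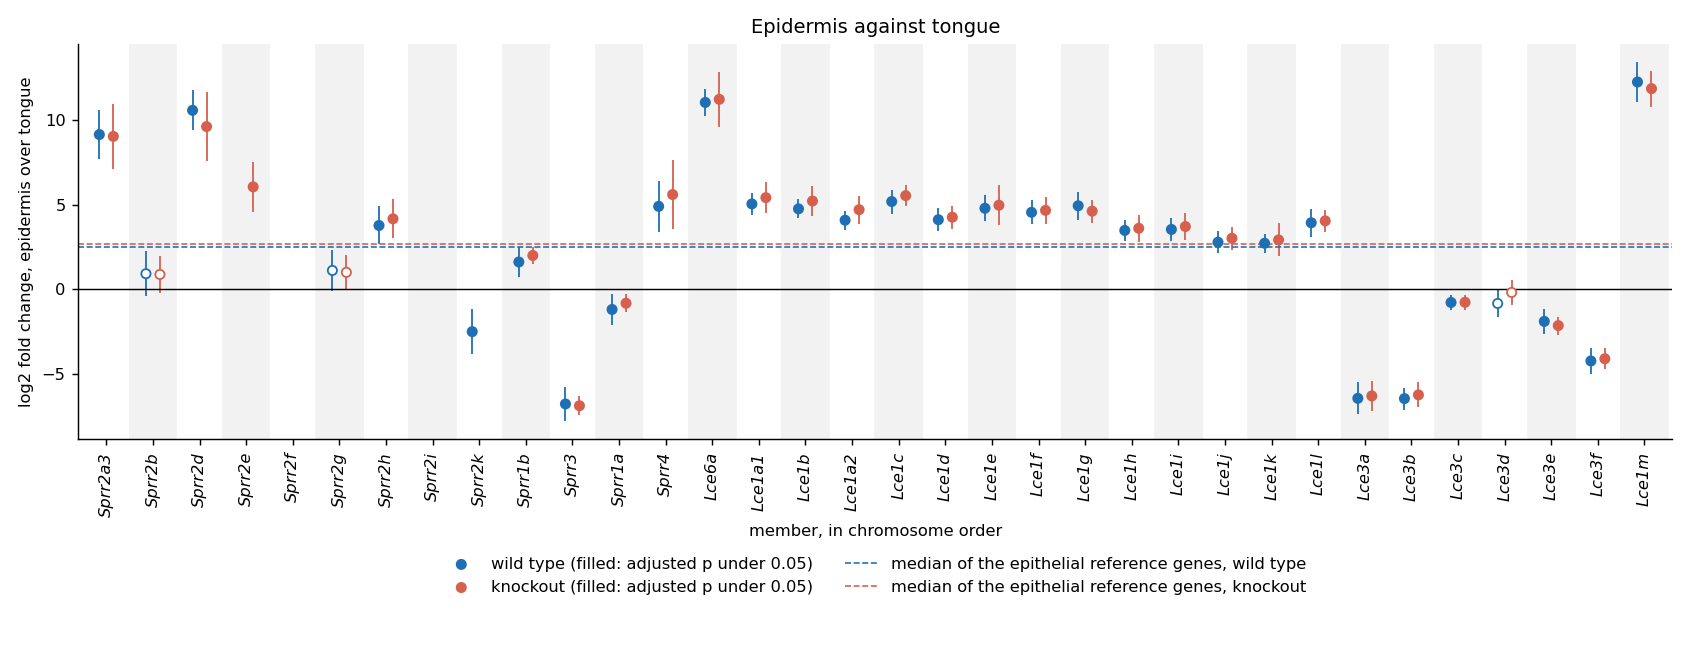
Log2 fold change of epidermis over tongue for each member tested, with 95% intervals, in chromosome order, for wild type (blue) and knockout (red); filled points passed at an adjusted p under 0.05, dashed lines give the median of the epithelial reference genes. Lce1, Lce6a, Sprr2a3 and Sprr2d lie above the dashed lines, Sprr1b lies between 0 and the lines, and Sprr3, Lce3 and Sprr1a lie below 0.

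Sprr3, a gene known from the lining of the mouth and oesophagus, was the leading member in tongue. It read 551, 504, 703 and 917 CPM in the wild-type tongues and 670, 768, 578 and 734 CPM in the knockout tongues. In epidermis it read 2.93, 5.54 and 9.13 CPM in wild type and 6.14, 4.90, 4.15 and 7.57 CPM in the knockouts. The lowest tongue library was far above the highest epidermis library. The log2 fold change was -6.78 (SE 0.46, edgeR adjusted p = 1.9e-06) in wild type and -6.88 (SE 0.26, edgeR adjusted p = 4.8e-09) in the knockouts. Per kilobase, Sprr3 stood at 547 ± 152 CPM per kb (SD, n = 4) in wild-type tongue. Lce3a at 125 ± 41.9, Lce3f at 106 ± 32.5, Lce3b at 99.0 ± 18.9 and Sprr1a at 87.5 ± 27.0 followed, with SDs that overlapped from each to the next.

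The Sprr1 pair, transglutaminase substrates that are known to rise when an epithelium is stressed, summed to nearly the same CPM in both tissues. The sum was 91.4 ± 52.7 CPM (SD, n = 3) in wild-type epidermis and 90.8 ± 23.7 CPM (SD, n = 4) in wild-type tongue. Per 1000 CPM of the epithelial reference genes described below, however, the sum was 8.04 ± 3.69 (SD, n = 3; 4.29 to 11.7) in epidermis and 39.7 ± 12.95 (SD, n = 4; 24.7 to 55.1) in tongue, with no overlap. The members leaned apart. Sprr1b read 20.5, 72.8 and 90.2 CPM in wild-type epidermis and 21.9, 18.8, 16.1 and 24.1 CPM in wild-type tongue, so the lowest epidermis library lay within the tongue range. Sprr1a read 10.9, 39.8 and 40.1 CPM in wild-type epidermis and 53.2, 58.6, 68.5 and 102 CPM in wild-type tongue, with no overlap. The log2 fold change of Sprr1b was 1.62 (SE 0.40, edgeR adjusted p = 0.0059) in wild type and 2.00 (SE 0.23) in the knockouts. That of Sprr1a was -1.19 (SE 0.41, edgeR adjusted p = 0.028) and -0.82 (SE 0.25, edgeR adjusted p = 0.013), and with wild-type tongue 4 left out it was -0.98 with an edgeR adjusted p of 0.075. In the knockouts the Sprr1a libraries overlapped, with 59.9 CPM in knockout epidermis 2 and 54.1 CPM in knockout tongue 1. Sprr1b held 66.4% of the Sprr1 sum in wild-type epidermis and 22.9% in wild-type tongue, with 66.7% and 22.1% in the knockouts. The low epidermis values of both genes belong to wild-type library 1, the library with the high mitochondrial share, and the part of that share in them was not tested.

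Sprr2 was an epidermis subfamily by its sum, at 40.1 ± 4.21 CPM (SD, n = 3) in wild-type epidermis and 5.00 ± 1.77 CPM (SD, n = 4) in wild-type tongue, but its members went separate ways. Per 1000 CPM of the epithelial reference genes the sum was 4.08 ± 1.80 (SD, n = 3; 2.80 to 6.13) in epidermis and 2.27 ± 1.06 (SD, n = 4; 0.818 to 3.26) in tongue, and the libraries overlapped. Sprr2d read 12.3, 16.2 and 12.9 CPM in wild-type epidermis and had no read in any wild-type tongue. With 3 reads over the group as the floor, it was at least 229-fold higher in epidermis. Sprr2a3 read 5.74, 4.36 and 5.23 CPM in wild-type epidermis and had no read in any of the 8 tongues, which makes it at least 80.5-fold higher in wild-type epidermis and at least 72.4-fold higher in knockout epidermis. Sprr2e was at least 22.0-fold higher in wild-type epidermis, and in the knockouts, with 1 tongue read, it passed at a log2 fold change of 6.06. The fitted log2 fold changes of Sprr2d and Sprr2a3 were 10.58 and 9.15 in wild type and 9.62 and 9.04 in the knockouts, and with so few tongue reads their size depends on the prior count. Sprr2h read 22.3, 10.4 and 12.2 CPM in wild-type epidermis and 0.287, 2.10, 0.971 and 0.970 CPM in wild-type tongue, a log2 fold change of 3.78.

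Sprr2k was the exception among the 6 Sprr2 genes tested, being higher in tongue. It read 0.450, 0.513 and 0.103 CPM in wild-type epidermis and 1.34, 1.13, 2.84 and 2.67 CPM in wild-type tongue. The values are low but did not overlap, and the log2 fold change was -2.50 (SE 0.58, edgeR adjusted p = 0.0044). In the knockouts it fell below the filter, with 7 reads in the 4 epidermis libraries and 84 in the 4 tongues, a pooled ratio of 15.4 (counting interval 7.14 to 39.4). It held 0.870% of the Sprr2 sum in wild-type epidermis and 42.6% in wild-type tongue. Sprr2b and Sprr2g were low in both tissues, with wild-type means of 1.84 and 1.68 CPM in epidermis and 0.9503 and 0.792 CPM in tongue, and did not pass, at 0.92 (edgeR adjusted p = 0.20) and 1.12 (edgeR adjusted p = 0.10). Sprr2i and Sprr2f were lower still, with 52 and 15 reads in wild-type epidermis and 8 and 1 in wild-type tongue.

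Sprr4, between Sprr1a and Lce6a, is annotated as a single exon of 231 bases with 228 coding bases. Reads from any part outside that exon may not have been counted. Sprr4 was low but read mostly in epidermis. It read 1.35, 5.08 and 3.28 CPM in wild-type epidermis and at most 0.224 CPM in wild-type tongue. The log2 fold change was 4.91 (SE 0.67, edgeR adjusted p = 0.00018) in wild type and 5.60 (SE 0.93, edgeR adjusted p = 0.00033) in the knockouts.

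Whole tongue holds muscle, connective tissue and vessels besides epithelium, and the epithelial reference genes (10 genes such as Krt5, Krt14 and Cdh1) were themselves higher in epidermis, with a median log2 fold change of 2.52 in wild type and 2.66 in the knockouts. Subtracting that median kept the direction of 27 of the 28 members that passed in each genotype. As the median was above 0, only the members higher in epidermis could turn, 20 in wild type and 21 in the knockouts. Those higher in tongue could only move further from 0. The exception was Sprr1b, singled out after its values were seen, which became -0.90 in wild type and -0.66 in the knockouts, the same side as Sprr1a at -3.71 and -3.48. Lce1j and Lce1k came close to 0, at 0.27 and 0.21 in wild type.

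Other envelope genes were counted in the same way. Of 24 partners and neighbours in the complex, 23 were tested between the wild-type tissues, and 17 were higher in epidermis and 3 in tongue, where 32% and 31.6% of all genes were. Filaggrin-2 (Flg2) led with 6169 ± 1190 CPM (SD, n = 3) in wild-type epidermis and 2.01 ± 0.814 CPM (SD, n = 4) in wild-type tongue, a log2 fold change of 11.61. Flg, the precursor of the keratin-bundling filaggrin, had 8.51 and hornerin (Hrnr) 4.99. Repetin (Rptn), also counted here among the tongue markers, went the other way at -1.82. Of 23 regulators that have been reported at Sprr or Lce promoters, 15 were higher in epidermis and 3 in tongue, against the same shares of all genes. Fold changes over the list ran from -1.69 to 3.63, with a median of 1.51. That lay below the median of the epithelial reference genes (2.52), as did the median of the partners (2.02). The regulators named next were below 2.52 too. Klf4, a factor needed for the skin barrier, had 1.64, Grhl1 1.92, Fosl2, an AP-1 subunit, 1.61 and Trp63, the master factor of stratified epithelia and also one of the epithelial reference genes, 1.47.

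No member passed the threshold between knockout and wild type in either tissue. In epidermis no gene of 16073 passed (0% of genes tested) by edgeR's quasi-likelihood test with Benjamini-Hochberg adjustment. So none of the targeted genes passed by it, although the groups of Tmprss11b, Tmprss11d and Tmprss11e did not overlap. A member without a call may therefore still differ. Before adjustment 187 genes had a p under 0.05. DESeq2 passed 1 gene, which was not a member, and limma-voom passed 0. Of the 32 members tested, 24 lay above 0 and 8 below, with a median log2 fold change of 0.10, where 50.2% of all genes lay above 0. Sprr2f and Sprr2k were not tested. No member had groups that did not overlap, against 2.2% of all genes. The 95% interval of the fold change lay within 2-fold in either direction for 15 of the 32 members, so for the other 17 a change of 2-fold was within the interval.

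The lean above 0 moved with single libraries. Without knockout epidermis 2 (animal A343), 8 members lay above 0 and 24 below, and the median became -0.24. That library was the highest of the 7 for 14 of 14 Lce1 genes, Lce6a, both Sprr1 genes, Sprr4 and 6 of 9 Sprr2 genes. Its Lce1 sum was 4658 CPM against 2166 to 3390 CPM in the other 6 epidermis libraries. In the same library the partner list summed to 34751 CPM against 20489 to 25888 CPM, the suprabasal markers to 57697 CPM against 28759 to 57113 CPM, and the muscle markers to 769 CPM against 107 to 276 CPM. The tongue of the same animal was the highest of the 8 tongues for 12 of 14 Lce1 genes. The part of these values in the result was not tested. The split was 21 above and 11 below without wild-type epidermis 1, 17 and 15 without wild-type epidermis 2, and 19 and 13 without wild-type epidermis 3. Blocking on the A-number range gave 9 above and 23 below, and among the A38x libraries alone (2 against 2) it was 13 and 19.

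**Figure D4:**
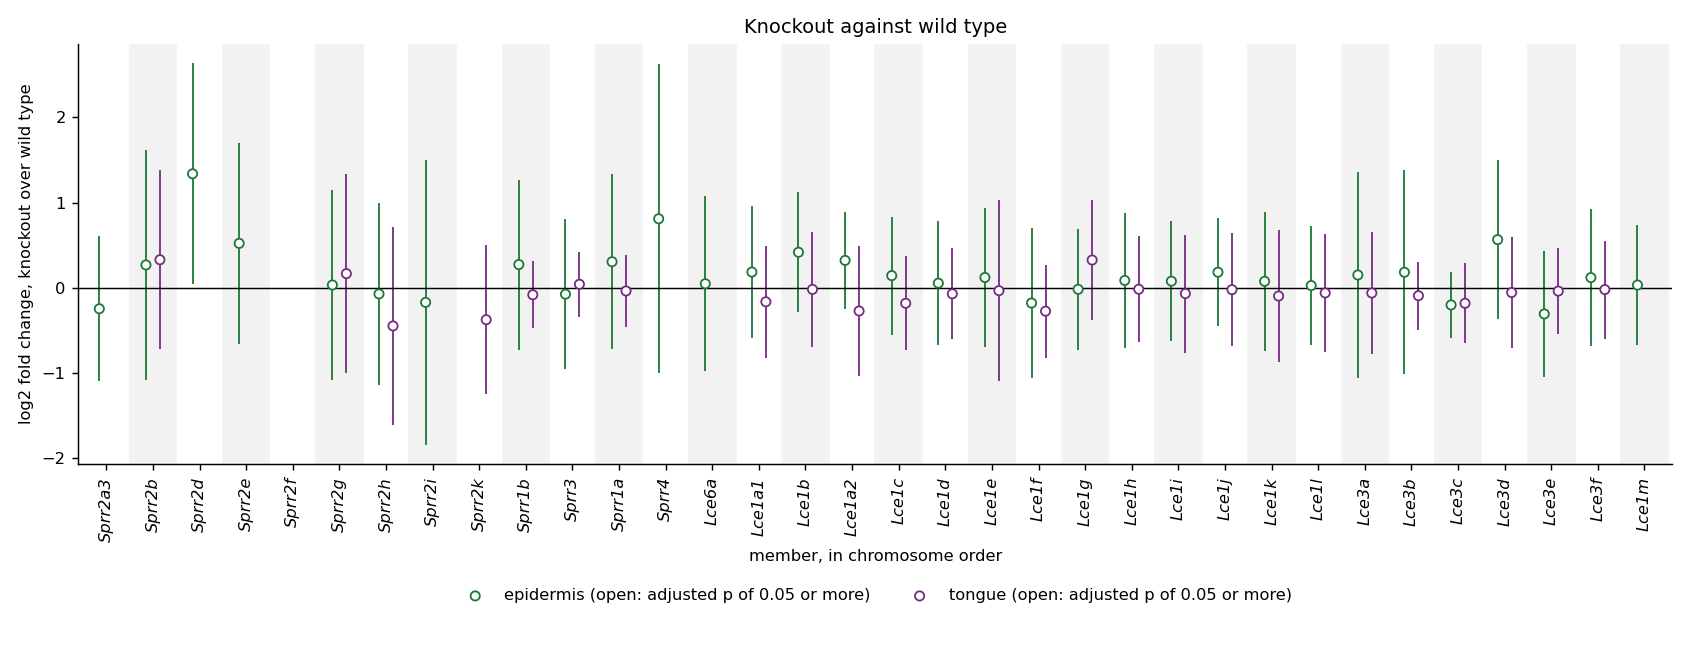
Log2 fold change of knockout over wild type for each member tested in epidermis (green) and tongue (purple), with 95% intervals, in chromosome order. Every point is open because none passed, and only the epidermis interval of Sprr2d lies clear of 0 before adjustment.

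Sprr2d had the smallest p of the members in epidermis. It read 12.3, 16.2 and 12.9 CPM in wild type and 13.3, 15.4, 59.5 and 52.6 CPM in the knockouts. Both high values belong to knockouts 3 and 4 of the A38x range, while knockouts 1 and 2 lay within the wild-type range, so the groups overlapped. The log2 fold change was 1.34 (SE 0.57, edgeR adjusted p = 0.9998). Among the A38x libraries alone, where 604 genes (3.83% of those tested) passed, it was 1.94 (SE 0.18, edgeR adjusted p = 2.2e-05) with 2 libraries a group. In the A32x range the single values were 12.3 CPM in wild type and 13.3 CPM in the knockout. With the range as a block it was 1.38 (edgeR adjusted p = 0.32). Leaving out 1 library at a time gave 0.95 to 1.59. Sprr2h, in the same cluster, read 13.4, 28.9, 7.27 and 8.74 CPM in the same knockouts, so knockouts 3 and 4 were there the lowest of the 7 epidermis libraries.

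**Figure D5:**
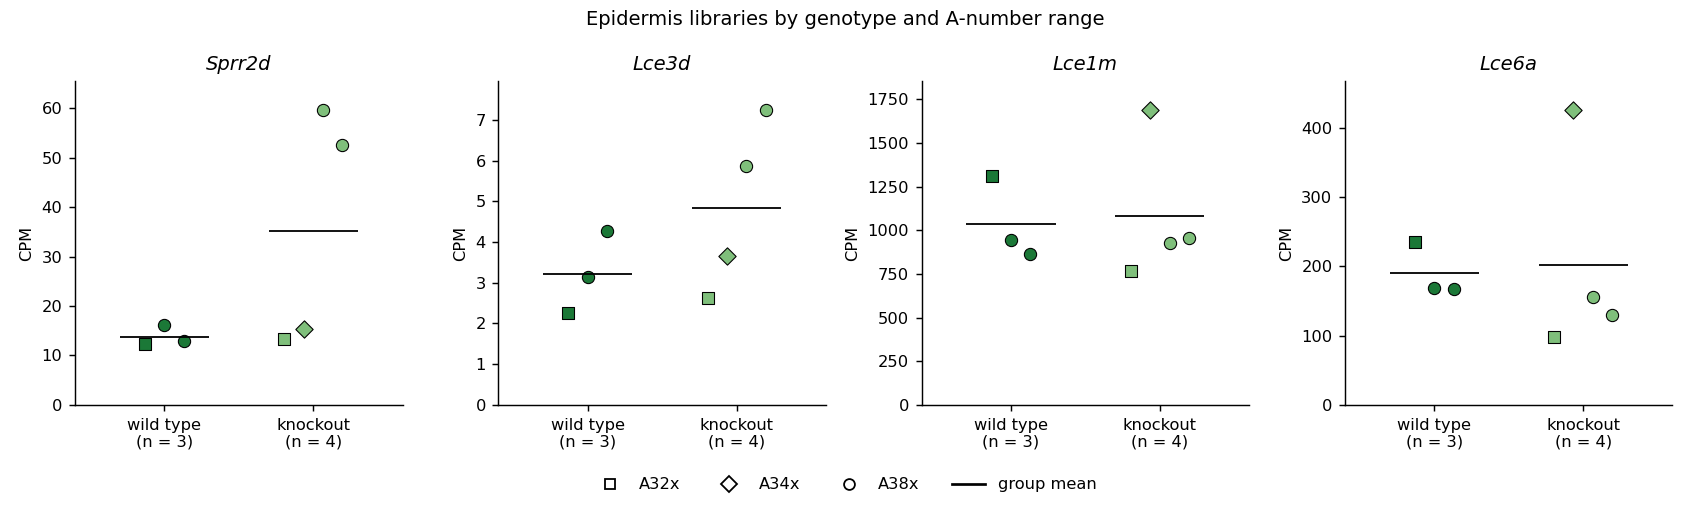
CPM in each epidermis library by genotype for Sprr2d, Lce3d, Lce1m and Lce6a, with the marker giving the A-number range and a line the group mean. The 2 high Sprr2d values are A38x knockouts, and the high Lce1m and Lce6a values in the knockouts are the A34x library.

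The next smallest p-values belonged to Lce3d (0.56, unadjusted p = 0.21 by edgeR), Lce1b (0.42), Lce1a2 (0.32), Lce3c (-0.20) and Sprr4 (0.81), all with an edgeR adjusted p of 0.9998. Lce3d read 2.25, 3.13 and 4.26 CPM in wild type and 2.62, 3.65, 5.87 and 7.23 CPM in the knockouts, and 57.1% of its 37-base stretches occur in other genes. The members with the highest mean CPM over all 15 libraries in the remaining subfamilies, which for Lce3 and Sprr1 are not the highest in epidermis, stood at 0.03 for Lce1m, 0.05 for Lce6a, 0.15 for Lce3a, 0.30 for Sprr1a and -0.08 for Sprr3. The sums were 2638 ± 658 (n = 3) and 2884 ± 1189 CPM (n = 4) for Lce1, 91.4 ± 52.7 and 114 ± 36.3 CPM for Sprr1, and 40.1 ± 4.21 and 61.2 ± 19.9 CPM for Sprr2, with the wild type first and SD throughout. Each pair of means differed by less than the spread of the knockout libraries, apart from Sprr2, where the difference was about as large as that spread and the mean of Sprr2d was 13.8 CPM in wild type and 35.2 CPM in the knockouts.

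In tongue 2 of 15741 genes passed (0.0127% of genes tested), and no member did, by edgeR, DESeq2 or limma-voom. All targeted genes found but Tmprss11g had groups that did not overlap there, so most of these did not pass by edgeR either. No tested member had an unadjusted p under 0.05 by edgeR, where 496 genes did. Of 26 members tested, 4 lay above 0 and 22 below, with a median of -0.06, while 51.8% of all genes lay above 0. No member had groups that did not overlap, against 2.29% of all genes. The interval lay within 2-fold for 19 of the 26. The 8 members not tested were Sprr2a3, Sprr2d, Sprr2e, Sprr2f, Sprr2i, Sprr4, Lce6a and Lce1m. The lean again moved with single libraries, with 18 above and 8 below without knockout tongue 1, 14 and 12 without knockout tongue 3, 13 and 13 without wild-type tongue 2, and 2 and 24 without wild-type tongue 1.

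The values of single members in tongue stayed close between genotypes. Sprr3 had a log2 fold change of 0.04, with 669 ± 186 CPM in wild type and 687 ± 83.5 CPM in the knockouts (SD, n = 4 each). Lce3a had -0.06 and Sprr1a -0.04. The smallest p-values belonged to Lce1f (-0.28), Lce1g (0.32), Sprr2k (-0.38), Lce3c (-0.18), Sprr2h (-0.45) and Lce1a2 (-0.27), each with an edgeR adjusted p of 0.94 or more. Wild-type tongue 1, knockout tongue 1 and knockout tongue 3 had the lowest Lce1 sums, at 47.2, 47.9 and 57.1 CPM against 79.5 to 110 CPM in the other 5 tongues. The same 3 libraries had the highest sums of the epithelial reference genes, at 3046, 3036 and 3087 CPM against 1926 to 2281 CPM. The part of that in the Lce1 values was not tested.

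The test of the difference between the tissues' knockout effects passed 0 of 17935 genes (0% of genes tested) by edgeR, and 299 genes had a p under 0.05 before adjustment. DESeq2 passed 1 gene, which was not a member, and limma-voom passed 0. Of 33 members tested, 22 lay above 0, meaning a higher effect in epidermis, and 11 below. The median was 0.14, and 51% of all genes lay above 0. This split too moved with single libraries, to 7 above and 26 below without knockout epidermis 2, and to 14 and 19 without wild-type tongue 2 or without knockout tongue 1. Blocking on the range gave 11 and 22, and the A38x libraries alone 15 and 18. The smallest p-values belonged to Sprr2k (-1.27), Lce1a2 (0.62), Lce3d (0.63), Sprr2e (-1.12), Lce1b (0.47) and Lce1c (0.36). Of these, Sprr2e rests on 0 wild-type and 1 knockout read in tongue, and Sprr2k on 16 wild-type and 7 knockout reads in epidermis. Sprr2d stood at -1.07 in this test although it was higher in knockout epidermis, where the tongue side rests on 2 reads in the knockouts and none in wild type, and DESeq2 put it at 0.041. The members of the other subfamilies with the highest mean CPM over all 15 libraries stood at -0.39 (Lce1m), 0.19 (Lce6a), 0.13 (Lce3a), 0.37 (Sprr1a), -0.12 (Sprr3) and 0.72 (Sprr4). In tongue, Lce1m, Lce6a and Sprr4 had only 10, 4 and 5 reads in wild type and 15, 4 and 6 in the knockouts. Only 2 of the 33 intervals lay within 2-fold, so the difference was measured less precisely than either effect.

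Partners and regulators gave no call in these comparisons either. In epidermis 17 of 24 partners lay above 0 with a median of 0.19, and 22 of 23 regulators with a median of 0.34, and none passed by edgeR. Lists of other cell types leaned the same way, with 8 of 8 fibroblast (median 0.44), 8 of 9 hair follicle (0.70), 9 of 10 skeletal muscle (0.88) and 8 of 10 epithelial reference genes (0.23) above 0, and their part in the regulators' values was not tested. The regulators' sum was 1533 to 2146 CPM in the wild-type epidermis libraries and 1825 to 3052 CPM in the knockout ones (2635 in knockout 2, 2722 in knockout 3 and 3052 in knockout 4). In tongue 9 of 22 partners and 18 of 22 regulators lay above 0, with medians of -0.08 and 0.16, and none passed.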

How the data were processed

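The submitters' processing notes name STAR 2.5.2a as aligner and GRCm38.p3 (mm10) as build. Which program counted the reads, with which strand setting and gene models, is not stated, and the kits named in the labels' protocols do not mark strand. The authors deposited raw counts of reads per gene. A second deposited table holds signal values, which on checking the files were these counts over 1 divisor per library. It served only as another scale.

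The 2 transgene entries stayed out of library sizes. For each comparison, genes kept by filterByExpr (minimum count 10) were normalised by TMM and tested two-sided with edgeR 4.0.16 (robust quasi-likelihood F test, R 4.3.3), with Benjamini-Hochberg adjustment over all of them and a threshold of 0.05. CPM came from TMM factors computed over all 15 libraries. The procedure was also run on simulated counts with known changes, and the outcome is not reported here. Alternatives were DESeq2 1.42.0, limma 3.58.1 (voom), other scaling, filters and blocks, and fewer libraries. Intervals are at 95%, and those from reads, like floors, cover counting error only. Depth was 10117819 to 17819195 reads. The p-values reflect only the spread among these libraries.

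Fold changes are given for the leading member of each subfamily by mean CPM, for the 6 largest changes past the threshold in each direction between tissues, and for the 6 smallest p-values in the other comparisons. In the tissue comparisons those of Lce1j, Lce1k, Lce3c, Lce3d, Sprr1b, Sprr2b, Sprr2g and Sprr2h, and in the knockouts also Lce1a1 and Lce1c, were added after their values were seen. Members and lists were chosen with earlier results of these data known. In knockouts the labels' A-numbers tie both tissues to the same 4 animals, and the correlations of their deviations were 0.063, 0.23, -0.19 and 0.16. Protein sequences were not used here.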

Additional observations from a re-analysis of the deposited data

Results flagged for a closer look

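Each of 110 sets of values, a member or subfamily sum in a group of 4 libraries, was searched for a library far from the others. Chance alone gives such a library in about 1 set in 20 only where the values are independent and normally distributed. Here the sets share libraries, a sum holds its members, and a group with reads in only 1 library is always flagged. No comparison with that rate is therefore made for the 13 sets that had such a library. Knockout epidermis 2 was far above the other 3 knockouts in 6 of them. Its values were 612.9 CPM for Lce1a1 (next 290.8), 310.8 CPM for Lce1b (next 140.0), 403.3 CPM for Lce1c (next 209.9), 346.0 CPM for Lce1d (next 180.9) and 170.4 CPM for Lce1g (next 95.66). The summed Lce1 level there was 4658 CPM (next 2448).

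Wild-type tongue 1 was far below the other wild-type tongues for Lce3b, at 39.84 CPM (next 59.24), and for Lce3d, at 2.873 CPM (next 6.706). Knockout tongue 2 was far above for Sprr2b, at 1.716 CPM (next 1.106). The other 4 sets rest on a few reads in a group otherwise at 0. In knockout tongue 4 these were Sprr2d at 0.1229 CPM, Sprr2e at 0.06145 CPM and Sprr2f at 0.2458 CPM, and in wild-type tongue 2 Sprr2f at 0.08087 CPM.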

How the results depend on the processing

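Tissue calls named above held under the alternatives run, except for Sprr1a (adjusted p by edgeR 0.057 with no filter and 0.075 without tongue WT 4 in wild type, 0.0501 in 1 fit over all groups in the knockouts), for Lce3d, Sprr2b and Sprr2g, which passed under some, and for Sprr1b, which turned to -0.90 and -0.66 relative to the epithelial reference genes. The Sprr2 share of wild-type epidermis was 1.18% over members with mostly unique stretches, against 1.35%. Knockout effects in epidermis passed 1 gene with DESeq2, 1 when blocked on the A-number range, 1 in 1 fit over all groups and 604 in the A38x libraries alone, where 1 member (Sprr2d) passed. In tongue 4 genes passed with DESeq2 and 15 in the A38x libraries, and for the difference 1 with DESeq2, 19 in the A38x libraries, and 0 to 1 on leaving out 1 library at a time (1 without epidermis KO 1). The causes were not tested.

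Single members were followed here only where the rule above named their fold change. Among these, the knockout effects that turned sign in epidermis were Lce1m (voom -0.010, range block -0.23), Lce3a (range block -0.26, A38x -0.51), Lce6a (voom -0.16, replicate block -0.042, range block -0.59, A38x -0.24), Sprr1a (A38x -0.39), Sprr3 (range block 0.071) and Sprr4 (range block -0.21, A38x -1.13), and in tongue Sprr3 (A38x -0.30). For the difference they were Lce1m (A38x 0.29), Lce3a (A38x -0.25), Lce6a (voom -0.033, range block -0.44), Sprr1a (A38x -0.10), Sprr2d (DESeq2 0.041, voom 0.57), Sprr4 (range block -0.032, A38x -0.18) and Sprr2e (voom 0.27). More members turned than are listed. Over all members tested, the range block put 9 above 0 and 23 below in epidermis, against 24 and 8 in the main fit. For the difference it put 11 above and 22 below, against 22 and 11.

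Leaving out 1 library at a time gave, in epidermis, -0.25 to 0.23 for Lce1m, -0.33 to 0.46 for Lce3a, -0.59 to 0.25 for Lce6a, -0.090 to 0.56 for Sprr1a, -0.39 to 0.40 for Sprr3 and -0.032 to 1.28 for Sprr4. In tongue it gave -0.27 to 0.13 for Lce3a, -0.15 to 0.19 for Sprr1a, -0.072 to 0.23 for Sprr3 and -0.73 to 0.08 for Sprr2h. For the difference it gave -1.23 to 0.26 for Lce1m, -0.31 to 0.39 for Lce3a, -0.47 to 0.69 for Lce6a, -0.020 to 0.62 for Sprr1a, -1.43 to 1.35 for Sprr2d, -0.40 to 0.35 for Sprr3, -0.15 to 1.27 for Sprr4 and -1.53 to 0.54 for Sprr2e. The upper ends of Sprr2d and Sprr2e come from the fit without knockout tongue 4, which left no tongue read of either gene. Their SEs there were 3799 and 1434, so neither upper end is a usable estimate.

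Same-numbered libraries of the 2 genotypes came from different A-numbers and were not treated as pairs, since their deviations did not all correlate (0.58, 0.0997 and 0.50 in epidermis, 0.58, 0.12, -0.16 and 0.23 in tongue). All but those of epidermis 2 share an A-number range. With the replicate block no member passed in the knockout comparisons, Lce6a in epidermis became -0.042 and Sprr2d 0.72. In the knockout tissues the animal block gave 22 members higher in epidermis and 7 higher in tongue. Depth limits Sprr2f, Sprr2i and Sprr2k, and in tongue also Sprr2a3, Sprr2d, Sprr2e, Sprr4, Lce6a and Lce1m.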
